A study of Mus musculus with 6 samples.

Results

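The Notch genes described here are 4 receptors (Notch1, Notch2, Notch3 and Notch4), 4 ligands (Jag1, Jag2, Dll1 and Dll4) and 2 target genes (Hes1 and Hey1). They were picked by symbol from a table of 27179 genes, and all 10 had a row and passed the filter on low values, a mean of at least 10 normalised counts, that left 13946 genes to test. The RNA came from kidney glomeruli, the capillary tufts that filter blood, which were collected from male mice aged 9 weeks after perfusion with magnetic beads. The mice of all 6 libraries were on a mixed C57BL/6 background and had both Parva alleles floxed (Parva-fl/fl). The protocol mentions mild proteinuria without naming a group. The mice of the 3 KO libraries also carried hNPHS2Cre, a Cre driven by the human podocin promoter and so active in podocytes, and those of the 3 WT libraries had the floxed alleles without Cre. Other glomerular cells of the KO mice are not targeted by this Cre, so the deletion does not cover the whole tissue that was sequenced. Nothing says whether each library is 1 mouse or a pool, so p-values measure the spread between these libraries. Values per library are given in the order of the replicate numbers 1, 2 and 3. Where a group has fewer cells of a type, or less RNA per cell, bulk libraries cannot tell the 2 apart.

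Notch signalling passes between cells in contact. A Delta or Jagged ligand on one cell binds a Notch receptor on its neighbour, the receptor is then cut by the sheddase ADAM10 and by gamma-secretase, and the freed intracellular part joins RBPJ and a Mastermind protein in the nucleus to switch on Hes and Hey repressor genes. In blood vessels Dll4, Notch1, Notch4, Jag2 and Hey1 are best known from endothelial cells, above all arterial ones, and Notch3 from the mural lineage to which mesangial and smooth muscle cells belong. Notch2 patterns the early nephron, whereas Jag1 and Hes1 are expressed in several kidney cell types, and Notch activity in mature podocytes is known as a feature of glomerular injury.

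The targeted gene was lower in every KO library. Parva had 6585, 7519.7 and 7889.8 normalised counts in WT libraries and 2288, 2338 and 1942 in KO libraries, a mean 70.1% below WT (limma adjusted p = 0.0106). Library depth ran from 11886828 to 20552984 whole reads. In WT-1, WT-2, WT-3 and KO-1 between 17.4% and 32.4% of the reads fell on 10 genes that were high in a single library, against 0.241% and 0.239% in KO-2 and KO-3. None of these is a Notch gene. Each of the 10 Notch genes had between 106 and 1745 reads in every library.

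All 4 receptors had lower normalised counts in each KO library than in any WT library, and all 4 passed the test across all genes with the deposited scaling. Of all genes tested, 21.9% had every KO library below every WT library and 8.58% were called lower. The differences of Notch2 and Notch3 turned positive, without passing the test, when libraries were scaled to endothelial or mesangial markers, as described below. Notch4 (chr17:34564286-34588543), the receptor most restricted to endothelium, stood at 1222, 1418 and 1285 normalised counts in WT and at 758, 743 and 846 in KO. Its mean fell from 1308 ± 100.2 to 782 ± 55.6 (SD, n = 3), which is -0.74 on the log2 scale with an SE of 0.10 (limma adjusted p = 0.0286). The gap between the lowest WT and the highest KO library was wider than the spread inside either group. Notch1 (chr2:26457902-26503822), which acts in arterial endothelium and in many other cells, stood at 1183, 1385 and 1436 in WT and at 889, 724 and 790.4 in KO. The groups did not overlap, and its mean fell by 40.0% (log2 fold change -0.74, SE 0.12, limma adjusted p = 0.0286). WT-1 was the lowest of the WT libraries and KO-1 the highest of the KO libraries.

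Notch3 (chr17:32120820-32166896), the receptor of mural cells, stood at 728, 850.2 and 928 in WT and at 583, 541 and 574 in KO. The KO libraries lay close together and all below the lowest WT library, again WT-1, and the fitted difference was -0.55 on the log2 scale (SE 0.11, limma adjusted p = 0.0286). Notch2 (chr3:98013538-98150367), the receptor of nephron patterning, had the smallest difference among the receptors, with 758, 686 and 738 in WT and 598, 542 and 555 in KO. Its mean fell from 727 ± 37.4 to 565 ± 29.2 (SD, n = 3), or by 0.36 on the log2 scale (SE 0.09, limma adjusted p = 0.0331). Unlike Notch1 and Notch3, its highest WT value was that of WT-1.

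Among the ligands, Dll4, Jag2 and Jag1 fell, beside 8.58% of all genes tested called lower, and Dll1 did not pass the test. The differences of Jag1, Jag2 and Dll1 turned positive, without passing, when scaled to endothelial or mesangial markers. Dll4 (chr2:119325784-119335666), the ligand of arterial and sprouting endothelium, stood at 853, 1050.1 and 1079.9 in WT and at 587, 521 and 567 in KO. Every KO library was below the lowest WT library, WT-1, and the mean fell from 994 ± 123 to 558 ± 34.1 (SD, n = 3), or by 0.83 on the log2 scale (SE 0.12, limma adjusted p = 0.0286). Jag2 (chr12:112907803-112929812) stood at 481, 568 and 558 in WT and at 311, 364 and 414 in KO, with a fitted difference of -0.57 in log2 (SE 0.13, limma adjusted p = 0.0310). The highest KO value, in KO-3, was below the lowest WT value. Jag1 (chr2:137081451-137116520) stood at 437, 338 and 348 in WT and at 291, 270 and 236 in KO, where WT-1 was high among its group, and its call was the closest to the threshold (log2 fold change -0.49, SE 0.14, limma adjusted p = 0.0470). Dll1 (chr17:15367354-15376932), a Delta ligand with a known role in the embryo, stood at 192, 156 and 185 in WT and at 192, 120.2 and 171 in KO. Its groups overlapped, and its log2 fold change of -0.16 had a 95% interval from -0.63 to 0.30 (limma adjusted p = 0.572).

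The KO values of the 2 target genes, both transcriptional repressors, lay below all their WT values, as in 21.9% of all genes tested. Hey1 passed the test, beside 8.58% of all genes tested called lower. The difference of Hes1 turned positive, without passing, under all 3 marker scalings. Hey1 (chr3:8663359-8667038), a target in endothelium, stood at 156, 271 and 205 in WT and at 98.3, 125 and 120.2 in KO. Its mean fell from 211 ± 57.6 to 114 ± 14.03 (SD, n = 3), or by 0.85 on the log2 scale (SE 0.22, limma adjusted p = 0.0367). Its 95% interval was wide, from -1.36 to -0.34. Hes1 (chr16:30065357-30067796), a target in many tissues, stood at 1166, 1422 and 1149 in WT and at 854, 954 and 1091 in KO. The highest KO library, KO-3, lay just below the lowest WT library, and the log2 fold change of -0.37 did not pass (SE 0.13, limma adjusted p = 0.0769).

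**Figure D1:**
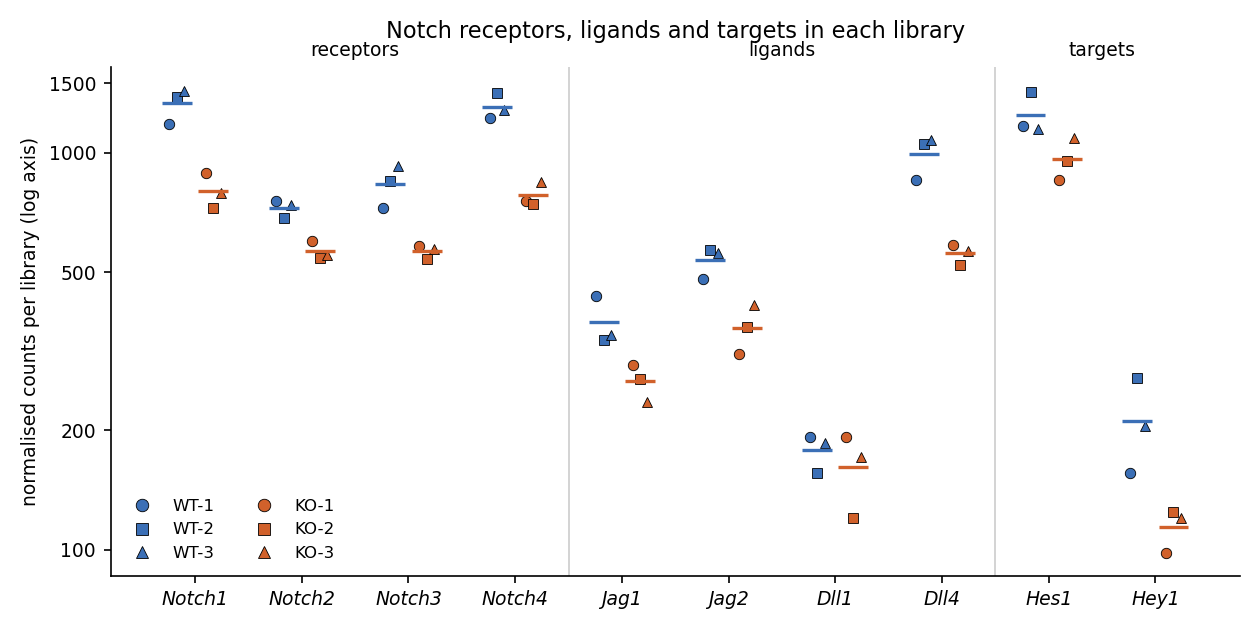
Normalised counts on a log axis (vertical) of the 10 Notch genes (horizontal) in 3 WT libraries (blue) and 3 KO libraries (orange); symbols mark the replicate number and bars the group means. The KO points lie below all WT points for 9 genes and overlap them for Dll1 at the deposited scaling; the fold changes of Notch2, Notch3, Jag1, Jag2, Dll1 and Hes1 turn positive when libraries are scaled to endothelial or mesangial markers.

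At the deposited scaling 8 of the 10 genes fell, 0 rose (0 also at an unadjusted p, in edgeR and in DESeq2) and 2 did not pass, whereas 6 of the 10 differences were positive when scaled to endothelial or mesangial markers. Of all genes tested at the deposited scaling, 8.58% were called lower and 13.5% higher. The median log2 fold change was -0.56 over the 10 genes and -0.006 over all genes. In 9 of the 10 the KO libraries were all below the WT libraries, as they were in 21.9% of all genes tested, and the exact permutation test gave these 9 a two-sided p of 0.1, the smallest that 3 against 3 libraries allow. The same 8 genes were called lower by edgeR, which called 8.25% of all genes lower, and by DESeq2, which called 10.5%. The calls rest on each of several libraries: limma called 7 of the 10 genes without WT-1, where Jag1 was lost, and 5 without KO-1, where Jag1, Jag2 and Hey1 were lost. Of all genes, it called 4294 and 2062 in these 2 fits and 3085 with all libraries. It called 0 without WT-2, WT-3, KO-2 or KO-3, fits in which it called at most 4 of all genes and in which 8 or 9 of the 10 had an unadjusted p below 0.05.

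Promoters are shown for the receptors and the ligand with the best supported decreases, Notch1, Notch4 and Dll4. The sequences are those of RefSeq (GRCm38.p6), cover up to 250 bases before the annotated gene and are written 5′ to 3′ on the strand of the gene. Capitals mark GGGCGG (the GC box), CACGCG (a site of Hes and Hey proteins) and AGGAAG (a site of ETS factors) on either strand.
Notch1, chr2:26503823-26504072, minus strand: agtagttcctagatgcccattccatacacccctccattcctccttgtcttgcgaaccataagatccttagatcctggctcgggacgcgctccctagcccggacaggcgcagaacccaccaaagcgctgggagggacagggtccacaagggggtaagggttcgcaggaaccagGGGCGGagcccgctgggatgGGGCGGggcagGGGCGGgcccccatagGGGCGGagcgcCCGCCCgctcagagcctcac
Notch4, chr17:34564045-34564285, plus strand: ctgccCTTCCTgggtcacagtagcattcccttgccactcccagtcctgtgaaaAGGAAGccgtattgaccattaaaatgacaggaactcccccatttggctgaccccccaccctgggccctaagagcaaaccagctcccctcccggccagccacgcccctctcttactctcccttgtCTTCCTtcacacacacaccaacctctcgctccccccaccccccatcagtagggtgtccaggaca
Dll4, chr2:119325534-119325783, plus strand: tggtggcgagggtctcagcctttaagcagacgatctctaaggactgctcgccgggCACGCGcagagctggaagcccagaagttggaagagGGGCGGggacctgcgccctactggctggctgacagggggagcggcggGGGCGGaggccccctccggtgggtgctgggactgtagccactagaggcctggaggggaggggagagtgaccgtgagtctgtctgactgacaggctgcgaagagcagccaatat

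The RefSeq table held windows for 8 of the 10 genes, and none was used for Hes1 and Hey1. GGGCGG stood 5 times in the Notch1 window and 2 times in that of Dll4, but 0 times in that of Notch4, where AGGAAG stood 3 times. Dll4 also held 1 CACGCG. Among all 32851 windows of 250 bases, 32.7% held GGGCGG, 7.62% CACGCG and 29.5% AGGAAG. The core of the RBPJ site, TGGGAA, was in 0 of the 9 windows of these 8 genes and in 21.6% of all windows. Not all 9 precede the annotated gene: the Jag2 window and 1 Dll1 window lay inside it, and those of Notch3 and Notch4 reached a few bases into it. E-boxes (CACGTG) and the longer ETS form CCGGAAG were also searched and were in none of the 9, against 6.02% and 6.91% of all windows. These are matches of letters in a short window and not evidence of binding.

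How far the Notch genes fell depends on what the libraries are set equal by. Apart from very low genes, scaling to a marker list adds nearly the same amount to every log2 fold change. Decreases smaller than that amount therefore turn positive. With libraries scaled to equal levels of 20 endothelial markers, 4 of the 10 genes (Notch1, Notch4, Dll4 and Hey1) had a negative log2 fold change, from -0.13 to -0.25, and 6 a positive one, from 0.03 for Jag2 to 0.43 for Dll1. Limma then called 0 of the 10, and 0 had an unadjusted p below 0.05, although it called 55.4% of all genes higher and the median of all genes moved to 0.59. Scaled to 12 mesangial markers, the same 4 genes were negative and 0 were called, against 62.8% of all genes called higher (median 0.61). Scaled to 17 podocyte markers, Notch3 and Jag2 were negative as well, at -0.04 and -0.06, but Notch2, Jag1, Dll1 and Hes1 stayed positive, and 0 of the 10 were called, against 37.0% of all genes called higher (median 0.50). The median over the 10 Notch genes was 0.04, 0.06 and -0.05 in these 3 fits.

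**Figure D2:**
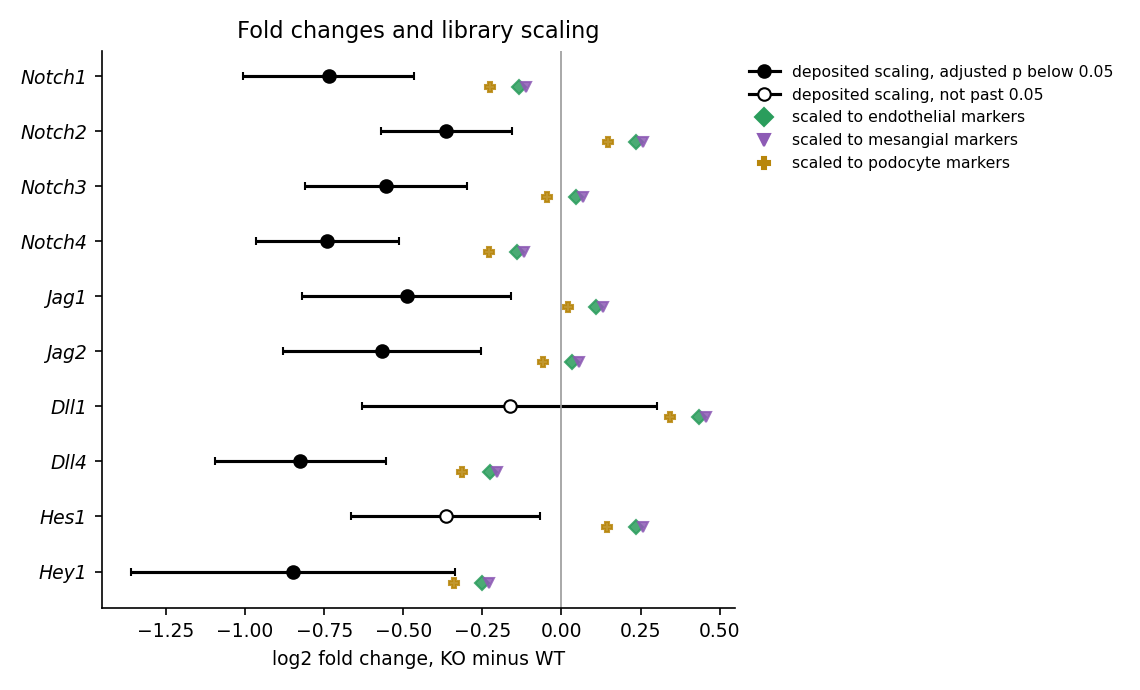
Log2 fold change, KO minus WT (horizontal), of each Notch gene (vertical) with the deposited scaling (circles with 95% intervals, filled where the adjusted p is below 0.05) and with libraries scaled to endothelial, mesangial or podocyte markers (coloured symbols, no intervals drawn). The circles are all below 0, whereas the coloured symbols lie between -0.34 and 0.46, and those of Notch1, Notch4, Dll4 and Hey1 are below 0 in all 3 scalings.

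The marker lists moved in the same libraries as the Notch genes. The counts of markers that fell stand beside 8.58% of all genes tested called lower. Of 20 endothelial markers 16 fell, with a median log2 fold change of -0.64, among them the receptors Flt1, from 2448 ± 207 to 1505 ± 77.5, and Tek, from 3586 ± 441 to 2113 ± 325 (SD, n = 3). Their mean log2 level was 11.28 to 11.55 in WT and 10.65 to 11.002 in KO. Of 9 arterial endothelial markers 3 fell (median -0.74), including the connexins Gja5 and Gja4 at -1.12 and -0.74 in log2 (limma adjusted p = 0.0286 for both). Of 12 mesangial markers 8 fell (median -0.67), at mean levels of 11.2 to 11.6 in WT and 10.7 to 10.9 in KO, with log2 fold changes of -1.02 for Pdgfrb and -0.79 for Itga8 (limma adjusted p = 0.0286 for both). Of 17 podocyte markers 8 fell (median -0.59), at mean levels of 12.7 to 13.0 in WT and 12.1 to 12.6 in KO, where Wt1 and Thsd7a had -0.92 and -1.04 (limma adjusted p = 0.0286 for both). None of the markers in these 4 lists was at 0 in any library.

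Markers of tubules rose instead, beside 13.5% of all genes tested called higher. Of 18 proximal tubule markers 17 rose (median 1.52), and their mean log2 level was 12.4, 11.3 and 11.3 in the WT libraries and 12.8, 13.4 and 13.3 in the KO libraries. The endocytic receptor gene Cubn rose from 763 ± 338 to 2173 ± 561 and the inositol oxygenase gene Miox from 3764 ± 1691 to 11837 ± 2329.7 (SD, n = 3). WT-1, the WT library with the most tubule signal, was also the lowest WT library for Notch1, Notch3, Notch4, Jag2, Dll4 and Hey1, but the highest for Notch2, Jag1 and Dll1. Of 12 markers of the distal tubule and collecting duct 3 rose (0 in edgeR and 7 in DESeq2), and of 9 parietal epithelial markers 4 rose and 1 fell. Among 7 smooth muscle and renin cell genes 4 fell and 1 rose. The renin gene Ren1 fell by -1.12 in log2 (limma adjusted p = 0.0286), and the gene that rose had a log2 fold change of 1.56. Of 10 immune markers limma, edgeR and DESeq2 called 0, and 0 had an unadjusted p below 0.05. The two-sided exact permutation test of the list means gave p = 0.1 for each list except the distal and the immune one (0.2 and 0.6), or 0.129 adjusted over the 9 lists. With the mean of the proximal tubule markers added as a covariate, all 10 Notch genes had negative log2 fold changes, from -0.78 for Jag1 to -0.12 for Dll1, and limma called 0 of them (3 at an unadjusted p below 0.05) and 0 of all genes. The part of the tubule content in the differences of the Notch genes was not tested further.

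**Figure D3:**
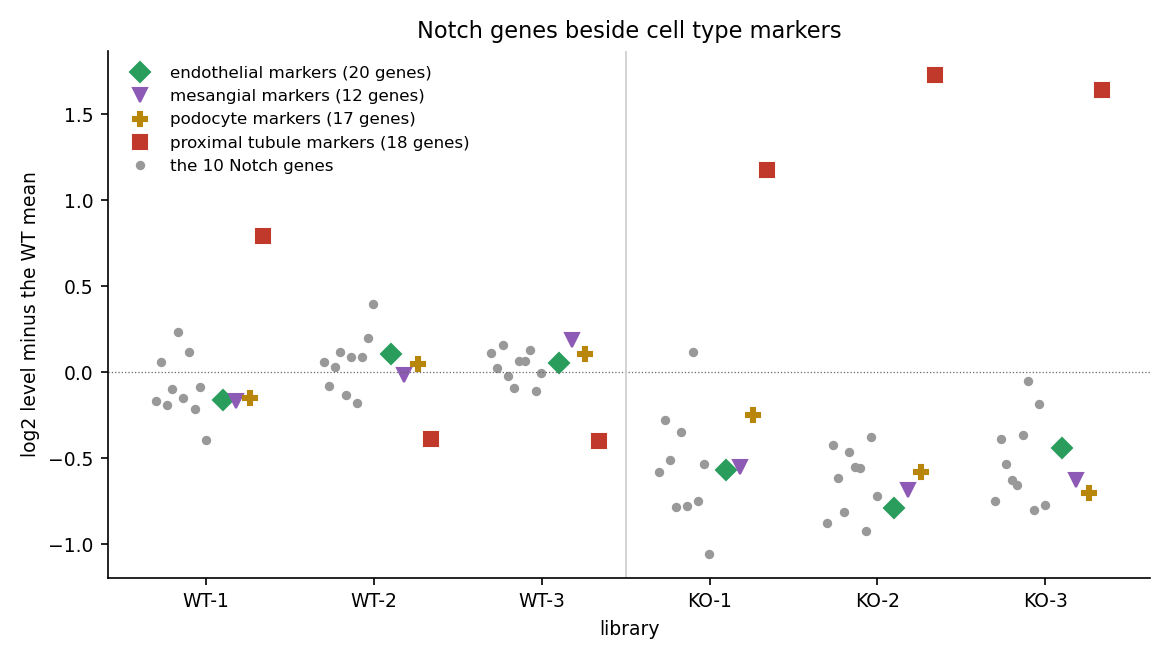
Log2 level minus the WT mean (vertical) in each library (horizontal) of the 10 Notch genes (grey dots, in the order Notch1 to Hey1 as listed in the text) and of the means of 4 marker lists (coloured symbols). Endothelial, mesangial and podocyte markers lie among the Notch genes in the KO libraries at the deposited scaling, and proximal tubule markers lie above them; when scaled to endothelial or mesangial markers, Notch2, Notch3, Jag1, Jag2, Dll1 and Hes1 change sign.

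Ratios between Notch genes of the same library, taken on normalised counts + 1, depend very little on scaling. The log2 ratio of Notch2 to Notch1 was -0.64, -1.01 and -0.96 in WT and -0.57, -0.42 and -0.51 in KO, so that Notch1 exceeded Notch2 by less in each KO library. The ratio of Notch3 to Notch1 was also higher in every KO library, with means of -0.68 ± 0.04 and -0.50 ± 0.10 (SD, n = 3), whereas that of Notch4 to Notch1 overlapped and differed by -0.01 (-0.07 to 0.09 when single libraries were left out). Among ligands, the ratio of Dll1 to Dll4 was -2.14, -2.74 and -2.54 in WT and -1.61, -2.11 and -1.72 in KO, without overlap. Jag1 and Jag2 relative to Dll4 overlapped between the groups, with differences of 0.34 and 0.26. These moved with single libraries, to 0.56 for Jag1 without WT-1 and to 0.40 without KO-1 or 0.17 without KO-3 for Jag2. The ratio of Hey1 to Hes1 was lower in every KO library, at -2.89, -2.39 and -2.48 in WT and -3.11, -2.93 and -3.17 in KO. Of these 7 ratios, the 4 without overlap had a two-sided exact permutation p of 0.1, the smallest possible here, or 0.175 after Benjamini-Hochberg adjustment, and the other 3 had 0.3, 0.3 and 0.9. None of the 7 therefore passed.

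To compare genes, counts were divided by the union of all annotated exons of each gene, not by the length of the expressed transcripts. The order and the shares given here depend on that choice. Per kilobase of exon, Hes1 was the most abundant of the 10 in WT, at 611 ± 75.2 normalised counts per kb (SD, n = 3). Dll4 followed at 258 ± 32.0 and Notch4 at 162 ± 12.4, each without overlap with the next. Notch3 and Notch1, at 103 ± 12.5 and 93.8 ± 9.40, overlapped. Jag2, Notch2, Hey1 and Jag1 formed an overlapping run from 76.9 to 64.3, and Dll1 was lowest at 42.2 ± 4.51. In KO the first 5 places were the same, with Hes1 at 474 ± 58.4 and Dll4 at 145 ± 8.86, and the last place went to Hey1 at 35.0 ± 4.30, which overlapped with Dll1. The 4 receptors summed to 427 ± 27.6 per kb in WT and 276 ± 13.4 in KO, and the 4 ligands to 441 ± 27.4 and 281 ± 16.4 (SD, n = 3).

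Within these sums, Notch4 was the largest receptor share in all 6 libraries and Dll4 the largest ligand share. Notch4 made up 38.0% ± 1.96 of the receptors in WT and 35.2% ± 2.002 in KO, overlapping between the groups. Notch2 made up 17.8%, 14.4% and 15.4% in WT and 19.5%, 19.3% and 18.2% in KO, where each KO library was above the highest WT library. Dll4 made up 53.9%, 60.7% and 60.4% of the ligands in WT and 52.1%, 51.6% and 51.2% in KO, all of these below the lowest WT value.

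**Figure D4:**
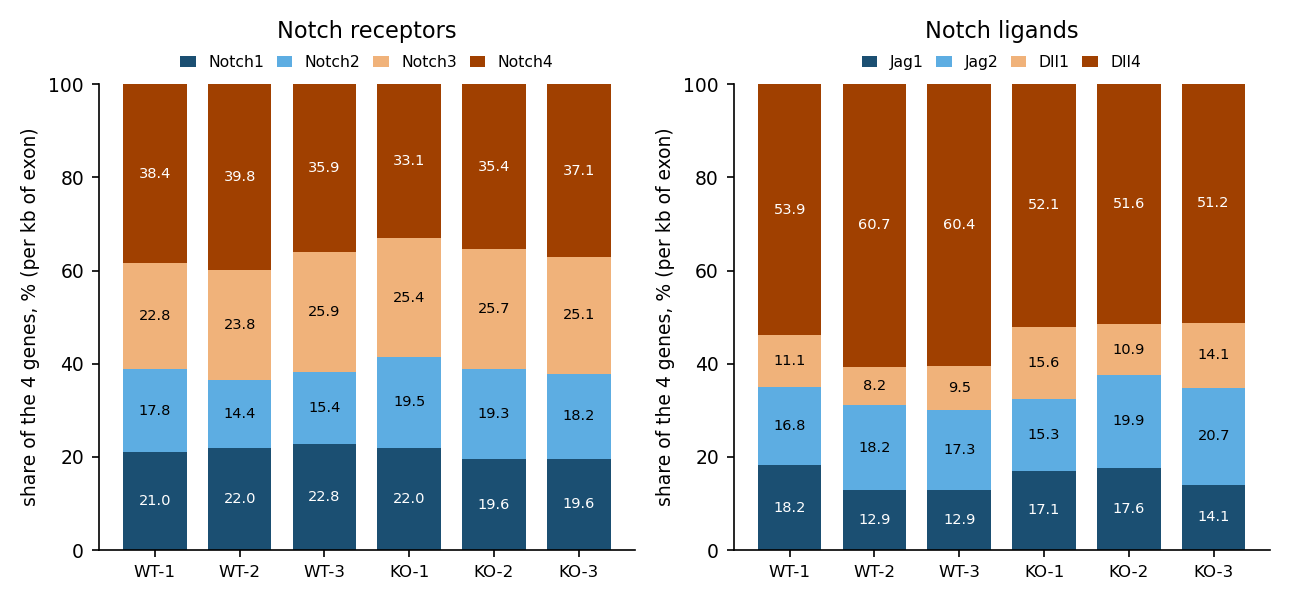
Share of each receptor (left) and ligand (right) in the summed normalised counts per kb of the 4 genes, in percent (vertical), for each library (horizontal); the number in each segment is its share. Notch4 takes 33.1% to 39.8% of the receptors, and Dll4 takes 51.2% to 60.7% of the ligands with its lowest 3 shares in the KO libraries.

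Of 52 other listed genes of the pathway, 47 could be tested: 6 fell, 2 rose and 39 did not pass, with a median log2 fold change of -0.20. Of all genes tested 22.1% were called in either direction, 8.58% lower and 13.5% higher, so the 8 calls among 47 are not above the share for both directions together. By direction the 47 leaned lower at the deposited scaling. Of them 35 had a negative difference, against 7055 of all 13946 genes. At an unadjusted p below 0.05, 15 were lower and 3 higher, against 2482 and 3081 of all genes. The count of 8 was 9 without WT-1, 5 without KO-1, and 0 without WT-2, WT-3, KO-2 or KO-3, fits with 11 to 15 of the 47 at an unadjusted p below 0.05. With libraries scaled to endothelial markers 18 of the 47 were called, all of them higher, with a median of 0.41, where 55.4% of all genes were called higher and their median was 0.59.

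Among other target genes, Heyl, a relative of Hey1 known from mural cells, fell from 184 ± 28.1 to 111 ± 27.4 (SD, n = 3; log2 fold change -0.74, limma adjusted p = 0.0476). It stood at 155, 185 and 212 in WT and at 139, 84.5 and 109 in KO, without overlap. Its call was lost in edgeR (adjusted p = 0.0525) and with no filter (limma adjusted p = 0.0558), and its difference was -0.10 with the tubule covariate and from -0.24 to -0.13 under the marker scalings. Nrarp, a feedback inhibitor that Notch itself induces, stood at 171, 199 and 221 in WT and at 146, 108 and 133 in KO (log2 fold change -0.61, limma adjusted p = 0.0426), a difference near 0 when scaled to endothelial (-0.01) or mesangial (0.012) markers. The call of Nrarp was likewise lost with no filter (limma adjusted p = 0.0524). Hey2 overlapped between the groups (log2 fold change -0.33, limma adjusted p = 0.258), Hes7 and Dtx1 were too low to test, and Hes5 had 0 reads in each library, a count that allows up to 3 reads per library.

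Against 8.58% of all genes tested called lower, 2 of 9 genes of the nuclear complex fell and 7 did not pass. Those that fell were the Mastermind co-activators Maml1 and Maml3, though both differences turned positive, without passing, under all 3 marker scalings. With no filter the call of Maml1 was lost (limma adjusted p = 0.0557). Maml1 went from 489 ± 10.4 to 376 ± 42.5 and Maml3 from 763 ± 72.6 to 552 ± 67.6 (SD, n = 3; limma adjusted p = 0.0452 and 0.0370), and Maml2, with no overlap either, had a log2 fold change of -0.57 (limma adjusted p = 0.0514). Rbpj, the DNA-binding factor of the pathway, stood at 592, 597 and 348 in WT and at 423, 282 and 282 in KO. WT-3 lay below KO-1, and the log2 fold change of -0.62 did not pass (SE 0.25, limma adjusted p = 0.113). Of 6 corepressor genes, the histone deacetylase gene Hdac1 fell from 1080.1 ± 63.0 to 663 ± 176 (SD, n = 3; limma adjusted p = 0.0321). Scaled to endothelial, mesangial and podocyte markers, its log2 fold change was -0.13, -0.11 and -0.22, without passing.

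Among genes that process the receptors, 2 were called, both higher. Against 13.5% of all genes tested called higher, 1 of 7 gamma-secretase genes rose and 6 did not pass. The gene that rose was Aph1c, a subunit with a close paralogue in Aph1b with which reads could be shared, at 203, 85.1 and 128 in WT and at 327, 431 and 446 in KO (log2 fold change 1.599, limma adjusted p = 0.0286). Its highest WT value was that of WT-1, the WT library with the most tubule signal. Furin, the protease that cuts the receptor precursor, rose from 1511 ± 194 to 2093 ± 165 (SD, n = 3; log2 fold change 0.47, limma adjusted p = 0.0339) and was likewise highest in WT-1 within WT. With the mean of the proximal tubule markers as covariate, the difference was 0.059 for Furin and 0.39 for Aph1c. That fit called 0 of all genes, and the targeted gene Parva did not pass in it either (limma adjusted p = 0.494). The marker mean did not overlap between the genotypes, so the fit cannot separate tubule content from genotype. What the 2 rises come from was not tested. The sheddase genes Adam10 and Adam17 had log2 fold changes of -0.25 and -0.21 that did not pass (limma adjusted p = 0.0708 and 0.295). For both, every KO library was below the WT libraries, as in 21.9% of all genes tested.

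Of the Fringe enzymes, which add sugars that tune how receptors respond to Delta and Jagged ligands, Mfng fell and Lfng and Rfng did not pass. Mfng stood at 369, 483 and 321 in WT and at 183, 201 and 255 in KO, a fitted difference of -0.87 in log2 (SE 0.19, limma adjusted p = 0.0298). Of all genes tested, 8.58% were called lower. Scaled to endothelial, mesangial and podocyte markers, the difference of Mfng was -0.27, -0.25 and -0.36, without passing. Its call was also lost without KO-1 (limma adjusted p = 0.0555). Lfng stood at 388, 598 and 481 in WT and at 444, 372 and 841 in KO, with KO-3 above all other libraries (log2 fold change 0.11, limma adjusted p = 0.820). Rfng had a positive difference of 0.25 in log2 (limma adjusted p = 0.166). Among 4 ligand ubiquitin ligases and 8 genes of receptor turnover limma, edgeR and DESeq2 called 0 genes, where limma called 22.1% of all genes. At an unadjusted p below 0.05 in limma were 0 of the ligases and 3 turnover genes, 2 lower and 1 higher. Of all 13946 genes, 2482 were lower and 3081 higher at that level.

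The genes with the closest profiles were found for each Notch gene as those with the smallest root mean square distance between log2 levels centred over the 6 libraries, among named genes with a mean of at least 50. For Notch1 they were Fmnl3, Rasgrp3 and Arhgef15, at 0.028 to 0.035. For Dll4 they were Atp2a3, Fgd5 and Amotl1 (0.031 to 0.037), and for Notch4 Ecm2, Arap3 and Hopx (0.030 to 0.053). Notch3 was closest to Hoxa11os, Plcb3 and Tmem184b (0.035 to 0.044), Notch2 to Naa16, Nat10 and Nop14 (0.028 to 0.045), and Hes1 to Ank, Anp32b and Tomm34 (0.043 to 0.049). Jag2 was closest to Brd9, Tie1 and St3gal4 (0.051 to 0.060). The nearest genes lay further off for Jag1 (Ccdc157, Ntn4 and Kdm6a, 0.0891 to 0.0996), for Dll1 (P2rx1, B3galt6 and Adam17, 0.078 to 0.099) and for Hey1 (Gmfg, Rasgrp2 and Setd5, 0.0844 to 0.0996). These distances describe 6 libraries that share a genotype and a tubule difference.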

How the data were processed

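Glomerular RNA was sequenced in 3 KO and 3 WT libraries made with a directional kit, and groups and replicate numbers came from the sample titles. The deposited normalised counts are in unit terms a signal, the reads of a gene over its library's size factor; the authors' headers name featureCounts counts, and the values show the division. The submitters' processing notes name cutadapt 1.16.5, HISAT2 2.1, featureCounts 1.6.4, DESeq2 2.11.40.6 and build mm10. Annotation and strand setting: not given in the sources used here, so reads of overlapping genes could not be told apart. Of the annotated genes overlapping a Notch gene, 2 had rows, at no more than 26.6 (within Notch1) and 92.0 (within Dll4) normalised counts.

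Symbols, coordinates and promoters came from RefSeq on GRCm38.p6, the assembly of mm10 (25293 features were named, a few of them with GENCODE M21). Exon lengths, the union of all annotated exons of a gene, came from GENCODE M21. The test was limma 3.58.1 (R 4.3.3) with a variance trend and genotype as the only term, on log2(normalised count + 1), over 13946 genes (mean of 10 or more), adjusted by Benjamini-Hochberg at 0.05. Fold changes are on that log scale, which understates the change of low genes. Values were whole multiples of a step per library (100% at a tolerance of 0.01), and the recovered reads, 11886828 to 20552984 per library, went into edgeR 4.0.16 and DESeq2 1.42.0 as alternatives. In WT-2 a read is worth 0.990 normalised counts, close to 1. Reads carry no molecular identifiers, so the floor of 3 reads covers counting error only.

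Other alternatives were 2 further pseudocounts (0.5 and 5), scaling by TMM, by upper quartile or to marker lists, other filters, no variance trend, a tubule covariate, a replicate block and leaving out each library. The limma step was tested on simulated counts. The 10 genes and all lists were chosen with earlier results of these data known. Named beyond the 10 were Parva, all other pathway genes past the threshold with Rbpj, Lfng and Adam10 among others (1 result is not reported here), 2 genes with the smallest adjusted p of each marker list described in detail, and 3 nearest profiles; Maml2, Hey2, Rfng and Adam17 were added after their values were seen. Replicates of a group differed by more than sampling noise.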

Additional observations from a re-analysis of the deposited data

How the results depend on the processing

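The count of 8 Notch genes called lower was 8 with both other pseudocounts, TMM and upper quartile scaling, a minimum mean of 50, edgeR and DESeq2, and 7 with no filter. It was 0 with the replicate block, without the variance trend, with the tubule covariate and with libraries scaled to endothelial, mesangial or podocyte markers, and ran from 0 to 7 when single libraries were left out. In the block and no-trend fits limma called 0 and 1 of all genes, and 9 of the 10 Notch genes had an unadjusted p below 0.05. The count of 8 other pathway genes was 0 with the replicate block, without the trend and with the covariate. It was 5 without a filter, 11 with upper quartile scaling and 0 to 9 without single libraries. Scaled to endothelial, mesangial and podocyte markers it was 18, 25 and 9, all of them genes called higher. Those 3 fits called 55.4%, 62.8% and 37.0% of all genes higher. Deviations of same-numbered libraries from their group means correlated at -0.23, -0.19 and -0.01, and those of differently numbered libraries at -0.20 to 0.34. With 3 libraries a group, these values cannot settle whether replicate numbers pair the libraries.

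Differences turned positive, without passing the test, with endothelial, mesangial and podocyte scaling in Notch2 (0.24, 0.26 and 0.15), Jag1 (0.11, 0.13 and 0.020), Dll1 (0.43, 0.46 and 0.34) and Hes1 (0.23, 0.26 and 0.14), and with the first 2 in Notch3 (0.046 and 0.068) and Jag2 (0.033 and 0.055). Maml1 (0.21, 0.24 and 0.12) and Maml3 (0.13, 0.16 and 0.043) turned likewise, as did Nrarp with mesangial scaling (0.012). Dll1 ranged from -0.30 to 0.034 without single libraries and was positive without KO-2. The shifts under marker scaling follow from the scaling itself, which adds nearly the same amount to the log2 fold change of each gene. The median of all genes moved from -0.006 to 0.59, 0.61 and 0.50. Scaling set by markers that may themselves change cannot give an absolute level, and why the markers differ between the groups was not tested. With 3 libraries a group, exact tests could not go below 0.1.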

Other observations

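The non-canonical ligand gene Dlk1 was present in some libraries of each genotype and had 0 reads in the others. It stood at 1281 normalised counts in WT-3, 557 in KO-1 and 984 in KO-2, from 1556, 629 and 909 reads, and at 0 in WT-1, WT-2 and KO-3. Rtl1, which lies in the same imprinted region of chromosome 12 and like Dlk1 is known to be expressed from the paternal allele, showed the same pattern, at 39.5 in WT-3, 19.5 in KO-1, 39.0 in KO-2 and 0 in the other 3 libraries. Dlk1 and Rtl1 were the 2 genes of the table with 0 in these 3 libraries and at least 10 normalised counts in each of the other 3. The maternally expressed Meg3 and Rian of this region were present in all 6 libraries, Meg3 at 98.5 to 340.5 and Rian at 127 to 299. Dio3, at the far end of the region, was at most at 3.40. These genes were looked at after the values of Dlk1 were seen, the pattern crosses the genotypes, and what it comes from was not tested.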
